A study of Mus musculus with 3 samples.

Results

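Open chromatin around 10 genes of the Hippo pathway was described in the whole uterus of pregnant mice: the core kinase genes Stk3, Lats1 and Lats2, the scaffold gene Sav1, the coactivator genes Yap1 and Wwtr1 (which encodes TAZ), and the DNA-binding factor genes Tead1, Tead2, Tead3 and Tead4. Peaks were taken as members when they overlapped the annotated span of a gene or the 10 kb on either side of it, which selected 13 of the 12413 peaks in the list. The mice were C57BL/6J wild-type females, 6 to 10 weeks old, untreated, mated with fertile males and killed on gestation day 4. FAIRE-seq recovers DNA that formaldehyde has not fixed to protein, so a peak marks nucleosome-depleted DNA. Pregnancy had been checked by blastocysts in fluid flushed from the uterus. The labels name 3 mice and 3 samples, as 1 group with no comparison group, and the series' design text speaks of RNA from 4 mice. The peak list names no mouse, so the values below have no error between mice, the depth is unknown, and no test was made. The whole organ mixes epithelium, stroma, muscle, vessels and immune cells. A higher enrichment from more cells with an open site cannot be told apart from a site that is open more often in each cell.

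In the Hippo pathway, the STK3 and STK4 kinases with the scaffold SAV1 activate LATS1 and LATS2, which phosphorylate YAP and TAZ and keep them out of the nucleus. Unphosphorylated YAP and TAZ enter the nucleus and, since they do not bind DNA themselves, act through TEAD proteins, which recognise the core GGAATG. The pathway is known as a control of organ size and of responses to cell contact and stretch. In the mouse embryo Tead4 is needed to form the trophectoderm, the layer that attaches to the uterus.

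Each of the 10 genes had at least 1 nearby peak, that is, in the gene or up to 10 kb from it, and 9 of them had it at a gene end, within 1 kb of an annotated end. Of all 21519 protein-coding genes, 57.6% had a nearby peak and 44.5% had a gene-end peak. The Hippo genes are long, from 17.7 kb (Tead2) to 280.4 kb (Stk3), all above the median protein-coding gene of 17.4 kb. Among the 10055 genes within that length range, 68.7% had a nearby peak and 54.7% had one at an end. The exception at gene ends was Tead2, whose nearest peak lay at another gene. From the top of the pathway down, the gene-end fold enrichment given by the authors was 13.1 at Sav1, 9.76 at Stk3, 6.53 at Lats1, 10.2 at Lats2, 8.88 at Yap1, 5.33 at Wwtr1, 5.25 at Tead1, 4.30 at Tead3 and 6.13 at Tead4.

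**Figure D1:**
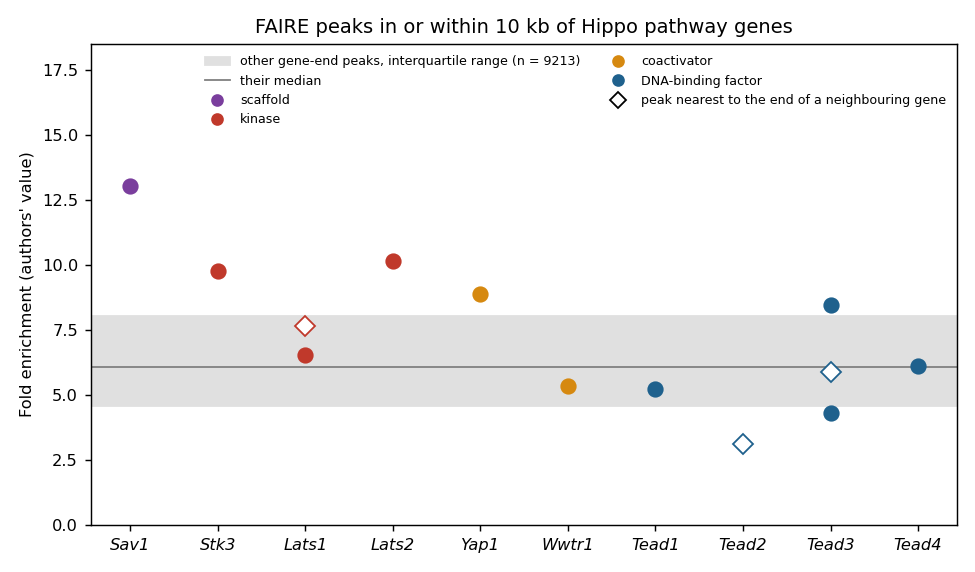
Fold enrichment given by the authors for each of the 13 peaks in or within 10 kb of the Hippo pathway genes, by gene and coloured by role, with the interquartile range and median of the 9213 other gene-end peaks as a grey band and line. Sav1, Lats2, Stk3, Yap1 and the peak inside Tead3 sit above the band, at 13.1, 10.2, 9.76, 8.88 and 8.44; the start-site peak of Tead3, at 4.30, and the peak near Tead2, at 3.12, sit below it.

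The promoter sequences show the bases near the start sites, and not the whole of any open region. The bases before the annotated start site are printed for genes with a strong, a moderate and no promoter peak, in lower case with the core GGAATG, or CATTCC where it lies on the other strand, in capitals. Each run is 250 bases, read 5′ to 3′ in the direction of the gene, from RefSeq on GRCm38.p6. For Lats2 and Tead3, 30 bases around the core are given instead, since in Lats2 the core follows the start site and in Tead3 it lies outside the peak. Tead2 is shown because it has neither the core nor a peak.
Yap1, minus strand of chr9:8004597-8004846: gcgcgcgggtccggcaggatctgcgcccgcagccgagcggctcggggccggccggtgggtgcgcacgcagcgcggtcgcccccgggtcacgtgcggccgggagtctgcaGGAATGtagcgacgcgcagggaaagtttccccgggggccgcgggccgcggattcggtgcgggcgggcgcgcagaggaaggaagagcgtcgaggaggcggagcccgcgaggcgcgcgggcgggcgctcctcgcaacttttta
Wwtr1, minus strand of chr3:57575911-57576160: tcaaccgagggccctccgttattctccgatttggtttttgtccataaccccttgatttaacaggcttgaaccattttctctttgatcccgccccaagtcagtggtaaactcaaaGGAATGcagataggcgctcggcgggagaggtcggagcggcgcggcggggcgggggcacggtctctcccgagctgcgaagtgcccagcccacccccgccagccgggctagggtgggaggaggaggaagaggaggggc
Sav1, minus strand of chr12:69987003-69987252: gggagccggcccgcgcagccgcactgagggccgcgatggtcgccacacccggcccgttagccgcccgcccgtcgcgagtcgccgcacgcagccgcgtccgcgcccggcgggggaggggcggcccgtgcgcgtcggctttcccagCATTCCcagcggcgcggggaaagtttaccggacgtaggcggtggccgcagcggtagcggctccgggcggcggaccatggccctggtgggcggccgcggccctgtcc
Tead2, plus strand of chr7:45215542-45215791: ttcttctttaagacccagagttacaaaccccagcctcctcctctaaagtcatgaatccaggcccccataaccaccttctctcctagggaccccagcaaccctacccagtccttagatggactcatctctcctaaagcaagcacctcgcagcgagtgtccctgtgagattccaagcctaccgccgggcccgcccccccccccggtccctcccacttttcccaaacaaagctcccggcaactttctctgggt
Lats2, minus strand of chr14:57746102-57746131: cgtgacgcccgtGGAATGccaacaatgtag
Tead3, minus strand of chr17:28350706-28350735: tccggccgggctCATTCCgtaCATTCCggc

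Sav1, which encodes the scaffold that brings the kinases together, had the strongest member peak (chr12:69986701-69987411, GRCm38.p5 as for all peaks here). Its fold enrichment of 13.1 ranked 134 in the whole list and lay above 98.9% of all peaks. The pileup at the summit was 165 over a local background of 11.7, with a −log10 q of 120.2. The summit lay at position -141 relative to the RefSeq start site and the peak took in all 300 bases of the promoter window, which runs from 250 bases before the start site to 50 after it. The start site used here lies inside the annotated span of Sav1, whose end with the higher coordinate is 998 bases from the summit.

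Stk3, which encodes the upstream kinase MST2, had a single peak in its 280.4 kb (chr15:35155255-35155932), with a fold enrichment of 9.76, a pileup of 100 and a −log10 q of 61.8. Its summit was 115 bases inside the end with the higher coordinate, and the nearest end of another protein-coding gene was 140331 bases away, at Osr2. Lats2, which phosphorylates YAP and TAZ and is itself a known target of YAP, also had a single peak (chr14:57745418-57746376), at 10.2-fold with a pileup of 124 and a −log10 q of 78.0. That peak was 959 bases wide, wider than 97.1% of all peaks, and reached 253 bases before the start site and 705 after it. A second RefSeq start site of Lats2 had no peak. Gm52140, a predicted protein-coding gene, overlaps the end of Lats2 at which the peak lies, and its own nearest end was 7606 bases from the summit.

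Lats1, the paralog of Lats2, had a start-site peak of 6.53-fold (chr10:7680938-7681794, pileup 69, −log10 q 31.6), below the Lats2 value. The list gives 1 value for each, so this difference has no replicate check. The Lats1 summit lay at position -89 relative to the start site. An end of Pcmt1, a protein repair methyltransferase gene, was 217 bases from the same summit, so this peak cannot be assigned to Lats1 alone. The other peak counted for Lats1 (chr10:7725763-7726157, 7.66-fold) lay 9498 bases beyond it and 31 bases from an end of Katna1, which encodes a subunit of the microtubule-severing enzyme katanin. Without the Katna1 peak the strongest value for Lats1 is 6.53.

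Yap1, whose product YAP is the paralog of TAZ, had a single peak at its start (chr9:8004306-8004926) with a fold enrichment of 8.88, above 83.6% of all peaks, a pileup of 94 and a −log10 q of 54.5. Wwtr1 had a single peak at its start (chr3:57575769-57576131) with a fold enrichment of 5.33, above 42.4% of all peaks, a pileup of 55 and a −log10 q of 20.9. The local backgrounds were close, 9.70 at Yap1 and 9.50 at Wwtr1. Both summits sat just before the start site, at position -105 in Yap1 and -32 in Wwtr1. The Yap1 peak was 621 bases wide and covered the whole promoter window, and the Wwtr1 peak was 363 bases wide and covered 271 of the 300 bases of the first of its 2 windows and all 300 of the second. No other protein-coding gene had an end within 10 kb of either summit, the nearest being Cfap300, 16971 bases from Yap1, and Commd2, 68407 bases from Wwtr1.

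The gene-end peaks of the Tead genes ran from 4.30 to 6.13, with Wwtr1 (5.33) in the same range. Tead1 had a single peak over an annotated end (chr7:112679039-112680177, 5.25-fold, pileup 59, −log10 q 22.0) that was 1139 bases wide, the widest member peak and wider than 99.1% of all peaks. Tead4 had a single peak 340 bases inside the end with the higher coordinate (chr6:128300206-128300841, 6.13-fold, pileup 57, −log10 q 24.8). For Tead1, Tead4 and Stk3 no promoter sequence was used here, and which end is the start was not taken from the tables. A further peak of 10.3-fold lay 26.2 kb beyond the other end of Tead4, outside the 10 kb taken here, with Tead4 as the protein-coding gene whose end was nearest.

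Tead3 was the gene with the most peaks, 3, and its strongest was away from the ends. That peak (chr17:28341066-28341433, 8.44-fold, pileup 95, −log10 q 53.0) lay 9565 bases inside the gene from its nearer end, and 10207 bases from the nearest end of another gene. At the start-site end Tead3 had a weak peak of 259 bases (chr17:28350090-28350348, 4.30-fold, pileup 45, −log10 q 13.4), whose summit was 151 bases after the last of 3 RefSeq start sites. The promoter windows of the first and second start sites did not overlap a peak. The remaining peak (chr17:28328312-28328944, 5.89-fold) belonged by distance to the ribosomal protein gene Rpl10a, 113 bases from an end of that gene and 3087 bases from Tead3.

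Tead2 had no peak in the gene. The single peak counted for it (chr7:45240857-45241140) had a fold enrichment of 3.12, above 1.83% of all peaks, with a pileup of 24 and a −log10 q of 4.23. Its summit lay 7504 bases beyond Tead2 and 219 bases from an end of the transporter gene Slc6a16. The next peak on the other side was 11.3 kb away (4.12-fold), just outside the 10 kb limit. A gene without a listed peak may still be open below the threshold of the list, which is not given in the sources used here.

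**Figure D2:**
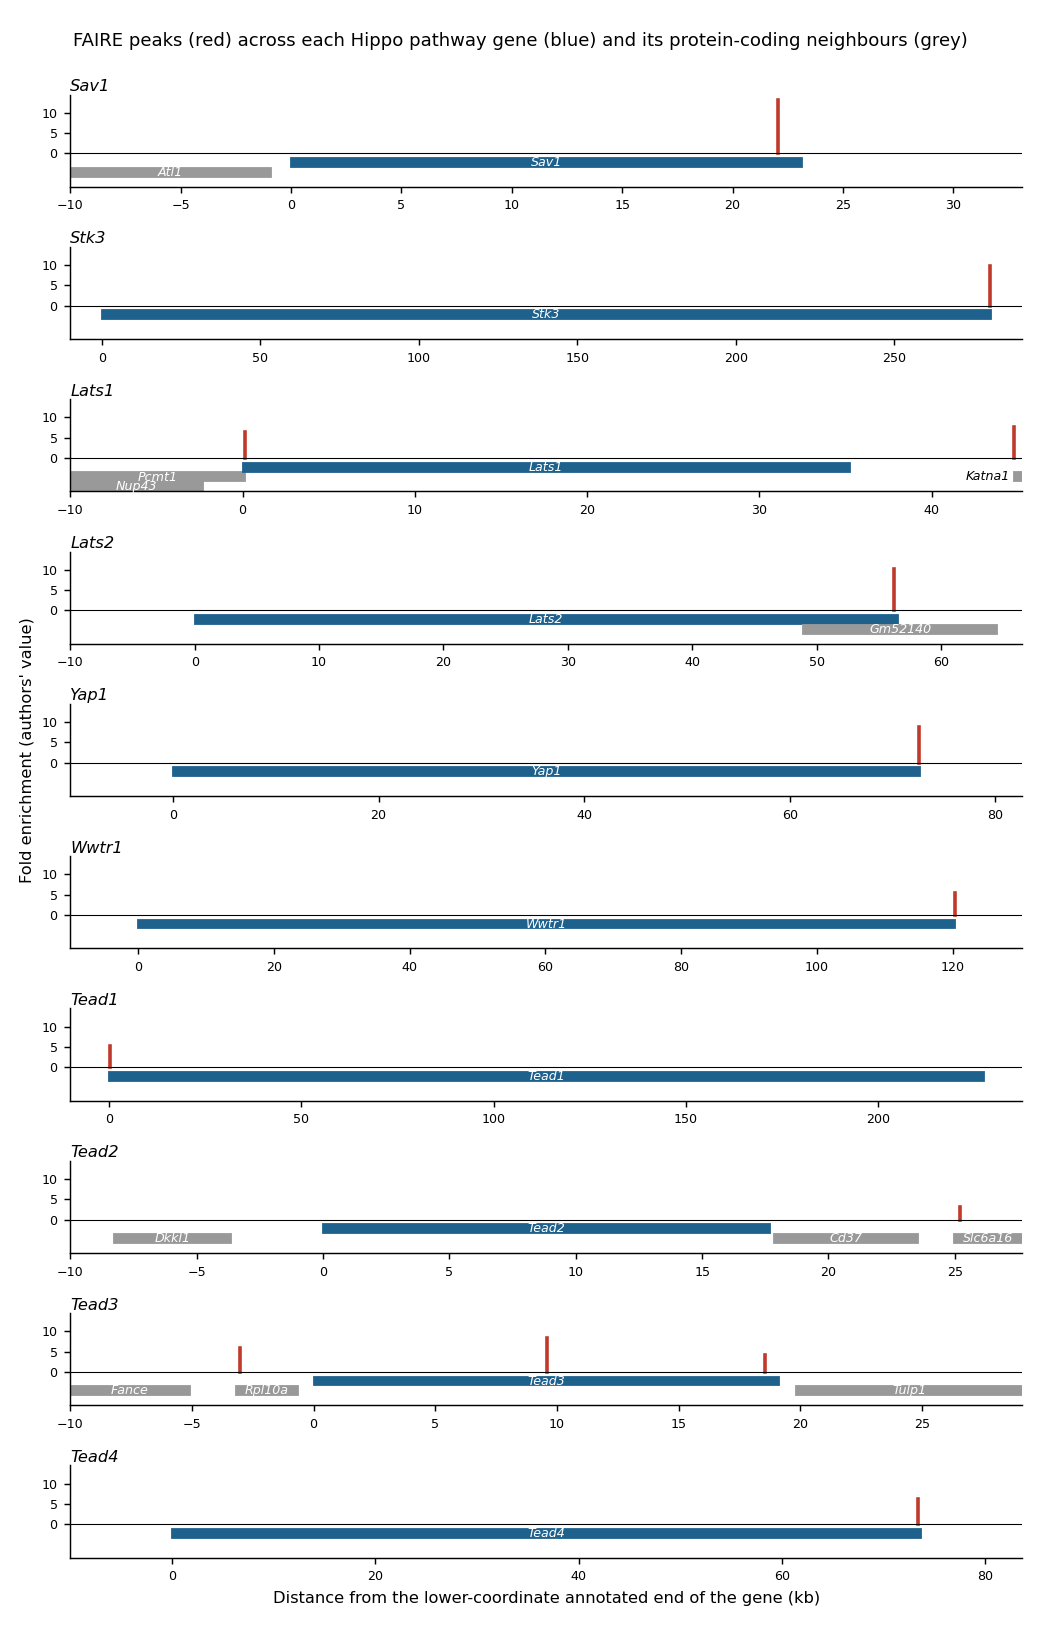
Each panel shows a Hippo pathway gene (blue) with its protein-coding neighbours (grey) and 10 kb on either side, as distance in kb from the lower-coordinate end; red lines are peaks, with height as the authors' fold enrichment. Of the 13 peaks, 9 stand within 1 kb of an end of the gene, 1 lies deep in Tead3, and 3 lie beyond Tead2, Tead3 and Lats1, at neighbours.

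Of the 13 peaks, 10 were nearest to an end of a Hippo gene and 3 to an end of a neighbour (Slc6a16, Rpl10a and Katna1). Exactly 1 peak was counted for 8 of the 10 genes. Among genes in the same length range with any peak, 66.8% had exactly 1. None of the 10 genes had a peak at both ends, and 1.83% of the genes in that length range with a gene-end peak did. Beyond the 10 kb limit, the next peaks on either side stood 11.3 to 549.7 kb from the genes, with a median of 53.4 kb. The longest of these gaps was beside Wwtr1.

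The 13 peaks had a median fold enrichment of 6.53 (interquartile range 5.33 to 8.88), against 5.86 (4.42 to 7.84) for the 11782 other peaks in or within 10 kb of a protein-coding gene. The 9 peaks within 1 kb of a Hippo gene's own end had a median of 6.53, and the 12 within 1 kb of any protein-coding gene's end had 6.33, against 6.06 for the 9213 other gene-end peaks. The member peaks had a median width of 633 bases, against 435 bases for the other peaks near protein-coding genes. The 12 within 1 kb of any protein-coding gene's end had a median of 634.5, against 452 for the other gene-end peaks. Of the 13 member peaks, 8 were wider than the median of all peaks. The local background of the member peaks reached 11.7 with a median of 9.70. That median was 8.64 for the other peaks near protein-coding genes and 8.70 for the other gene-end peaks. Among the 9573 genes with a gene-end peak, the median of the strongest end peak was 6.33-fold, and 5 of the 9 Hippo genes with such a peak lay above it. Sav1 lay above 98.8% of these genes, Lats2 above 89.5%, Stk3 above 86.8%, Yap1 above 80.0% and Lats1 above 52.8%. Tead4 lay above 46.7%, Wwtr1 above 33.1%, Tead1 above 31.3% and Tead3 above 15.6%. The Tead genes with a gene-end peak were all below the median, as was Wwtr1, and the scaffold gene, the 3 kinase genes and Yap1 were above it. Lats1 (6.53) and Tead4 (6.13) lay close to that median, and the Lats1 peak cannot be assigned to Lats1 alone.

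**Figure D3:**
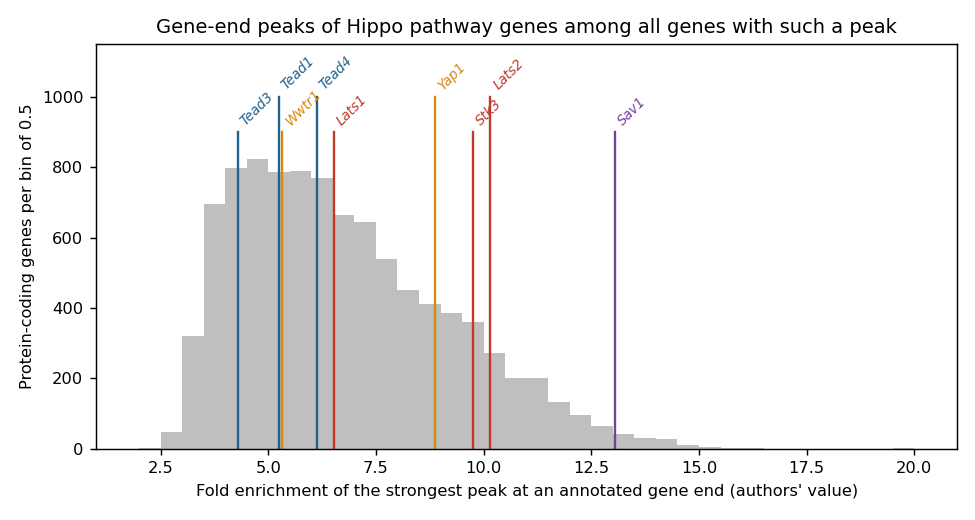
Distribution of the strongest gene-end fold enrichment over the 9573 protein-coding genes with a gene-end peak (grey bars), with the 9 Hippo pathway genes that had such a peak as lines coloured by role. Sav1, at 13.1, stands in the upper tail, while Tead3, at 4.30, stands left of the median of 6.33.

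RefSeq promoter windows were found for 7 of the 10 genes, 11 windows in all, and 7 of the 11 overlapped a peak, against 38.4% of the windows of protein-coding genes. A CpG ratio of 0.6 or more was found in 9 of the 11, against 48.1%. The ratio of observed to expected CpG was 1.23 at Yap1, 1.09 at Sav1, 1.05 at Lats1 and 0.978 at the first Lats2 window, against a median of 0.574 over 21044 windows of protein-coding genes. It was 0.707 and 0.667 at the overlapping Wwtr1 windows, and 0.741, 0.895 and 0.678 at the Tead3 windows. The windows without a peak were those of Tead2 (0.534), the second start site of Lats2 (0.293), and the first and second of Tead3. Of windows with a ratio of 0.6 or more, 7 of 9 Hippo windows overlapped a peak, and 72.1% of all such windows did. The Tead2 window and the second Lats2 window lay below 0.6, where 7.09% of all windows overlapped a peak. The content of G and C ran from 61.3% to 78.3% in the Hippo windows apart from the second Lats2 window, at 42.7%, against a median of 56.7%.

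**Figure D4:**
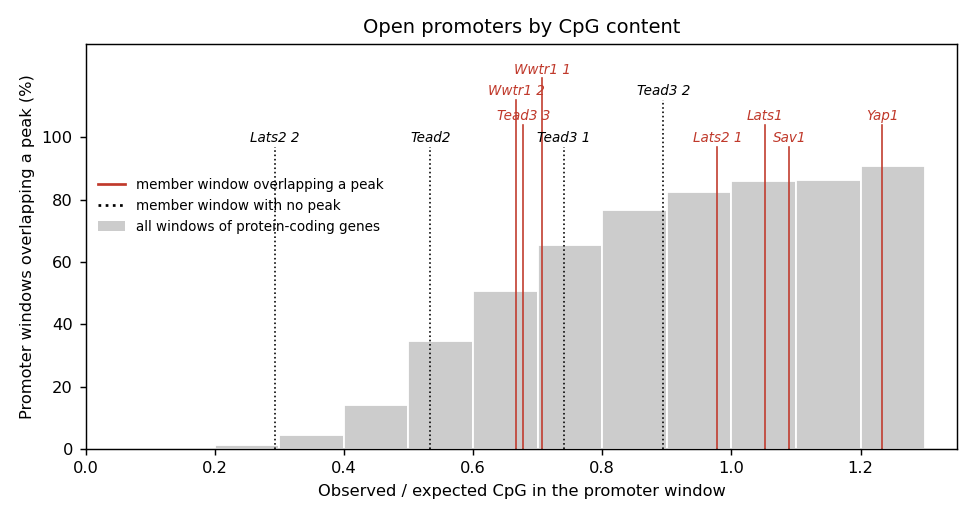
Share of all promoter windows of protein-coding genes that overlapped a peak (grey bars, %), by observed over expected CpG in bins of 0.1 that hold at least 20 windows, with the 11 Hippo windows as lines, numbered by start site where a gene has several. The share climbs with CpG content, from 0.093% in the lowest bin to 90.8% in the highest; Yap1, Sav1, Lats1 and the first Lats2 window lie at the right with a peak, while Tead2 at 0.534 and the second Lats2 window at 0.293 have none.

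The core GGAATG, searched on both strands, was present in the promoter windows of 5 of the 7 genes: Yap1, Wwtr1, Lats2, Sav1 and Tead3. It was present in 15.4% of the 17273 protein-coding genes with a window. By window, 7 of 11 held it, against 13.5% of all windows, and the Wwtr1 windows share a single site. Among the Hippo windows that overlapped a peak, 5 of 7 held it, against 9.68% of all such windows, and among those that did not, 2 of 4 held it, against 15.8%. Of windows with a CpG ratio of 0.6 or more, 7 of 9 Hippo windows held it, against 10.0%, and 5 of 7 with a peak as well, against 9.3%. In the 150 bases before a start site it was found in 4 of 7 genes, against 7.89%. In the sequences printed above, the core began at position -141 relative to the start site in Yap1 and at -136 in Wwtr1. In Sav1, on the other strand, it began at -106, and in Lats2 it covered bases 4 to 9 after the start site. In these 4 genes the core lay inside the FAIRE peak, 33.5 bases from the summit in Yap1, 37.5 in Sav1, 76.5 in Lats2 and 102 in Wwtr1. The peaks covered all 300 bases of the Yap1, Sav1, first Lats2 and second Wwtr1 windows. Any motif in those windows would therefore lie inside the peak, and the distances were not set beside those of other sequences. Tead3 held 4 copies over its first and second windows, a pair of them 3 bases apart in the printed stretch, and all 4 lay outside its peaks. Lats1 and Tead2 had no copy in their windows. A match of letters is not evidence that a TEAD protein binds there.

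Of the other motifs, the GC box GGGCGG, bound by Sp and Klf factors, was in windows of 7 of 7 genes, against 49.8% of all genes with a window. By window, 10 of 11 held it, against 46.7% of all windows. Of the Hippo windows that overlapped a peak 7 of 7 held it, against 78.0% of all such windows, and of those that did not 3 of 4 held it, against 27.1%. The windows of Wwtr1 share their boxes, and the first and second windows of Tead3 share some of theirs. Counts by window are therefore not independent. The box CCAAT, bound by NF-Y, was in 0 of 7 genes, against 42.7%. The AP-1 sites TGACTCA and TGAGTCA were in 0 of 7, against 5.44%, and the palindromic steroid receptor element was also in 0 of 7, against 0.509%. Each was searched on both strands. The GC box holds a CpG, so it is not independent of the CpG ratio.

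Of 25 upstream regulators, 23 had a nearby peak and 19 had one at an end, against 57.6% and 44.5% of all protein-coding genes. In the length range of the 10 members those shares were 68.7% and 54.7%. The strongest were near Wwc2, a KIBRA family scaffold gene (11.1-fold), and Mob1a, which encodes a LATS coactivating subunit (10.8). Next came Taok2, a kinase gene upstream of STK3 (10.7), and Limd1, an Ajuba family LATS inhibitor gene (9.94). At the ends of Mob1a and Limd1 the values were 7.78 and 5.85, and the Taok2 peak was nearest to the end of another gene. Only 1 of the 3 peaks counted for Mob1a and 1 of the 2 for Limd1 were nearest to the gene's own end. Stk3 had 9.76-fold, against 5.32-fold as the strongest value near its paralog Stk4, which had 4.95 at its end. Of the 2 peaks counted for Stk4, 1 was nearest to its own end. Amotl1 and Tnik had no peak. The Vgll genes, whose products compete with YAP for TEAD, were split: Vgll4 (6.25) and Vgll3 (6.20) had a peak at an end, and Vgll1 and Vgll2 had none.

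Of 21 genes that are widely used as YAP and TAZ targets, 18 had a nearby peak and 14 had one at an end, against 57.6% and 44.5% of all protein-coding genes. In the length range of the 10 members those shares were 68.7% and 54.7%. The targets reach beyond that range, from 2.31 kb (Gadd45a) to 1057 kb (Rbms3). The targets were led by Asap1 (8.70-fold), Gadd45a (8.38), Tgfb2 (7.83) and Amotl2 (7.68), of which Tgfb2 had no gene-end peak. Ankrd1, Ccdc80 and Rbms3 had no peak. Ccn2 and Ccn1, the matricellular genes most often used as readouts of YAP, had strongest peaks of 5.72 and 4.81. The Ccn2 peak was at an end, and at the end of Ccn1 the value was 3.54. Like Stk4, Ccn2 and Ccn1 were added to the named genes with their values in view. The median of the strongest fold per gene was 8.05 for the 10 Hippo and Tead genes, 6.28 for the regulators and 5.77 for the targets. It was 6.61 for all 12397 protein-coding genes with a peak. These medians count peaks at neighbours, such as the 7.66-fold peak at Katna1 for Lats1, and were not matched for gene length. At gene ends the medians were 6.53 for the 9 Hippo and Tead genes with such a peak and 6.33 for all 9573 genes with one. Amotl2 and Ptpn14 stand in both the regulator and the target list. GGAATG was in promoter windows of 7 of 20 regulators, 6 of 14 targets and 3 of 4 Vgll genes with a window, beside the 15.4% of all genes given above.

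**Figure D5:**
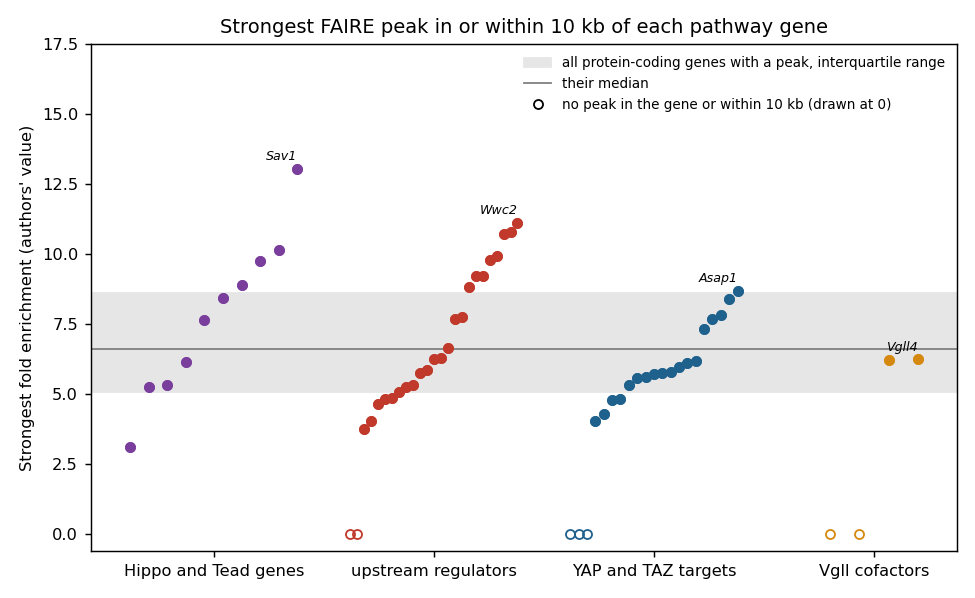
Strongest fold enrichment (authors' value) of a peak in or within 10 kb of each gene, for the 10 Hippo and Tead genes, 25 upstream regulators, 21 YAP and TAZ target genes and 4 Vgll cofactor genes, with open circles at 0 for genes without a peak. The grey band and line are the interquartile range and median (6.61) over the 12397 protein-coding genes with a peak; Sav1 is the highest point at 13.1.

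Of 33 genes that mark the cells a uterus or its embryos could hold, 12 had a nearby peak, against 57.6% of all protein-coding genes. Pgr, the progesterone receptor gene, had 1 (5.05-fold), and Esr1, the oestrogen receptor gene, none. For muscle, Des (4.45) had a peak at an end and Cnn1 (4.68) had nearby peaks but none in the gene, and Acta2, Myh11 and Tagln had none. For epithelium, Epcam (6.53) and Cdh1 (4.75) had peaks, and Krt8, Krt18 and Foxa2 had none. For stroma, Hand2 (4.50) and the neighbours Hoxa10 and Hoxa11 had peaks, and Col1a2, Col3a1, Pdgfra and Vim had none. Hoxa10 and Hoxa11 had the same strongest value (3.65), so 1 shared peak may be counted for both. For endothelium Flt1 (6.12) had a peak, and Cdh5, Kdr and Pecam1 had none. For immune cells Cd68 (5.19) had nearby peaks, but none in the gene or nearest to its own end, and Adgre1, Cd3e and Ptprc had none. Of the blastocyst markers, Pou5f1 (6.71, nearest to another gene's end) and Eomes (4.83) had a peak, while Cdx2, Gata3, Nanog and Tfap2c had none. The peak at Tead4 stands beside these values, and the part of embryonic cells in it was not tested.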

How the data were processed

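FAIRE-seq libraries came from whole uteri of 3 mice, and the deposited peak table names no mouse. FastQC, Bowtie2, HOMER and MACS2 are listed, with no versions, together with the build GRCm38.p5, per the submitters' processing notes. The call threshold, any input control and any pooling of mice are not given in the sources used. The authors deposited, for each peak, the pileup (a coverage signal at the summit), a fold enrichment (a ratio) and a −log10 q, per the file headers. The depth is unknown. The local background was computed as (pileup + 1) / fold − 1, on the assumption that the fold was formed that way, which the headers do not state.

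Names, distances and neighbours came from a RefSeq gene table (GRCm38.p6). It kept 49210 genes, 21519 of them protein-coding, once 340 whose coordinates belong to scaffolds (start under 3 Mb) had been removed. Members were matched by symbol. Any shared base counted as overlap, a gene-end window was 1 kb around an annotated end, and distances run from the summit. Promoter windows (250 bases before to 50 after a start site) came from RefSeq. Python 3.11.15 and pandas 2.3.3 were used, and the overlap and motif counts were tested on simulated data.

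The genes, lists and motifs were chosen with earlier results of these data known. The rule for named genes took the 10 members, the 4 genes of highest fold and up to 3 without a peak per list, open marker genes and the neighbours nearest to a peak; marker genes without a peak were named to account for their lists. No test between samples could be made.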

Additional observations from a re-analysis of the deposited data

How the results depend on the processing

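No mouse could be left out in turn and no depth can be given, because the table names no sample. No paired analysis was possible because the series has 1 group and the results come from no test. Of 68 values recomputed under other settings for the counts and medians above, 63 kept within 1.5 times of the reported count or within 1 SD of the member folds (2.73). These limits are wide, since a fall from 10 to 7 genes counted as kept. Taking the summit as the criterion, or leaving out the peaks of high background, changed none of the values recomputed under those settings. All 10 genes kept a peak with the summit as the criterion, with 50 kb flanks (70.8% of all protein-coding genes) and without the 30 peaks of high background (57.6%), and 9 did with no flank (48.8%), with 5 kb (54.2%), or when only peaks nearest to the gene's own end counted, a setting chosen after seeing the data. With the 6207 peaks of highest fold or of highest −log10 q, 7 of the 10 genes kept a peak (36.2% of all protein-coding genes by fold, 35.8% by −log10 q). With 50 kb flanks, 22 peaks were counted in place of 13, and the strongest near Tead4 was 10.3-fold. With the 6207 peaks of highest fold, 14 of 25 regulators and 9 of 21 targets had a peak, beside 36.2% of all protein-coding genes. With those of highest −log10 q, 9 of 21 targets and 1 of 4 Vgll genes did, beside 35.8%. Gene-end windows of 500 bases gave 8 genes (41.5% of all protein-coding genes), and windows of 2 kb (47.7%) and 5 kb (51.9%) gave 9. Start sites alone gave 6 of the 7 genes with a promoter window, and the share over all genes was not computed for this setting. By window, 38.4% of all promoter windows of protein-coding genes overlapped a peak, and 72.1% of those with a CpG ratio of 0.6 or more. GGAATG was in 4 of 7 genes when only the 150 bases before the start site were searched (7.89% of all genes with a window).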
